A study of Homo sapiens with 10 samples.

Results

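The genes described here are the sensors and eIF2alpha kinases through which a cell registers misfolded protein and related stresses: ERN1, XBP1, ATF6, ATF6B, EIF2AK1, EIF2AK2, EIF2AK3 and EIF2AK4. They were taken by gene symbol from a table of RNA-seq counts, where they make up 8 of 57353 listed genes, and all 8 passed the filter on low counts that left 17230 genes for testing. The table covers 10 samples of LNCaP-C4-2, a castration resistant human prostate cancer cell line, in which CPT1A had been lowered or raised. CPT1A is an enzyme of the outer mitochondrial membrane that makes acyl-carnitines from acyl-CoA, the form in which fatty acids can then enter the matrix. All lines carried a lentivirus. The NT line (n = 2) had a control shRNA, which the labels call scrambled and the study non-targeting, and the KD line (n = 3) had an shRNA against CPT1A. Both were selected with Puromycin at 1 ug/ml. The EV line (n = 2) had an empty vector and the OE line (n = 3) a CPT1A cDNA, and both were selected with a drug the labels spell Blasticin, at 5 ug/ml. A single shRNA sequence and a single cDNA clone were used, and the labels do not say whether replicates were separate cultures, so p values measure the spread between these samples.

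Unfolded protein in the endoplasmic reticulum (ER) is sensed by several membrane proteins. IRE1alpha, the product of ERN1, is a kinase and RNase that cuts an intron out of the XBP1 mRNA, so that the transcription factor XBP1s is made. ATF6 and its relative ATF6B travel to the Golgi under stress, where proteases release a transcription factor. PERK, the product of EIF2AK3, phosphorylates the translation factor eIF2alpha, which lowers protein synthesis while the mRNA of ATF4 is translated more. The other kinases of eIF2alpha answer to other signals: HRI (EIF2AK1) to heme shortage and mitochondrial stress, PKR (EIF2AK2) to double-stranded RNA, and GCN2 (EIF2AK4) to amino acid shortage. These proteins are switched on mainly by dimerization, phosphorylation and cleavage, none of which was measured. The deposited counts are per gene and do not separate spliced from unspliced XBP1.

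Known stress elements were looked for in the promoters, and the stretches that hold one, in XBP1 and EIF2AK2, are shown here. Promoter windows of 300 bases, 250 before and 50 after a start given by RefSeq (GRCh38.p14), matched 7 of the 8 genes by symbol, all but EIF2AK1, with 8 windows since XBP1 has a pair of starts. The RefSeq start was the outer end of the GENCODE v44 gene, whose coordinates are given with each gene, for EIF2AK4, and lay 7 bases inside it for ATF6B, 22 for ATF6, 28 and 520 for XBP1, 542 for EIF2AK2, 675 for ERN1 and 64054 for EIF2AK3. The windows were searched on both strands for 5 motifs: the ER stress element ERSE (CCAAT, any 9 bases, CCACG), ERSE-II (ATTGG, any 1 base, CCACG), the XBP1 element UPRE (TGACG followed directly by TGG), the interferon element ISRE (GAAA, any 2 bases, GAAA) and the amino acid response element CARE (TGATG, any 1 base, AA). Among 35116 promoter windows of the same length, ERSE was found in 0.0769%, ERSE-II in 0.0541%, UPRE in 0.729%, ISRE in 3.57% and CARE in 3.62%. The ERSE of XBP1 began 52 bases before the outer of its RefSeq starts (position 28800569) and is shown in capitals within chr22:28800563-28800661 on the minus strand. The ISRE of EIF2AK2 began 6 bases before the RefSeq start (position 37156980), which is inside the GENCODE span of the gene, and is shown in capitals within chr2:37156961-37157026, also on the minus strand.
XBP1: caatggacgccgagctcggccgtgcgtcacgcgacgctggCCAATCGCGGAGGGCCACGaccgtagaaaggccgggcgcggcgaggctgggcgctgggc
EIF2AK2: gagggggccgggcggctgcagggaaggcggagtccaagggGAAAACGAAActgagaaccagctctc
None of the 5 motifs was matched in the windows of ERN1, ATF6, ATF6B, EIF2AK3 or EIF2AK4 or in the second window of XBP1 (chr22:28800028-28800327), which says only that these letters are not in these windows. A match is a description of the letters and not of binding.

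The libraries held 23555205 to 28615770 counts. CPT1A itself stood at 265 and 262 CPM (counts scaled by library size and TMM factor) in NT, 81.2, 86.4 and 86.2 in KD, 326 and 318 in EV and 870, 914 and 861 in OE, so it was lowest in the KD samples and highest in the OE samples. All 8 markers of luminal prostate cells averaged above 1 CPM over the 10 samples. Their summed levels were 6505 to 6779 CPM in NT, 9015 to 9819 in KD, 8817 to 9156 in EV and 11791 to 12102 in OE. Of 10 markers of other cell types, 2 averaged above 1 CPM over the 10 samples, and COL1A2, CD3E and KRT5 were at 0 throughout. The summed levels of these 10 markers were 9.89 to 11.0 CPM in NT, 16.2 to 17.6 in KD, 9.32 to 10.4 in EV and 11.9 to 14.1 in OE. The part of these markers in the results was not tested. These are bulk samples, in which fewer cells of a kind and less RNA per cell cannot be told apart. Changes also moved with base composition. In OE versus EV the median log2 fold change ran from -0.38 in the tenth of genes with the lowest exonic GC content (31.0 to 38.8%) to 0.29 in the tenth with the highest (61.4 to 82.1%), and in KD versus NT from -0.26 to 0.15. The 8 genes ranged from 39.4% GC in EIF2AK2 to 56.1% in ATF6B, so log2 fold changes of these genes that gained or lost a call, or moved over 1.5 times, with an offset for GC content are given with that value.

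Gene by gene, CPT1A knockdown lowered the RNA of ERN1 by 44.5%, of ATF6 by 45.0% and of XBP1 by 36.9%, whereas over-expression raised XBP1 by 54.1% and lowered EIF2AK2 by 31.2%. With the GC offset the log2 fold change of EIF2AK2 in OE was -0.19, in place of -0.54. Against its control, OE changed 6 of the 8 genes at an adjusted p under 0.05 (edgeR quasi-likelihood test, Benjamini-Hochberg over all tested genes), 4 upward and 2 downward, beside 52.0% of all genes. KD changed 5, 1 upward and 4 downward, beside 57.5% of all genes. The interaction, which is the change in OE versus EV minus the change in KD versus NT, was called for 7 genes, 5 positive and 2 negative, beside 44.3% of all genes. OE and KD also differ in vector and selecting drug, which cannot be told apart from CPT1A when these lines are compared directly. All 8 differed when OE was set against KD without the controls, 6 higher and 2 lower in OE, beside 59.8% of all genes, and these log2 differences ran from -0.51 in EIF2AK2 to 1.13 in XBP1. Of these, 7 were called with library sizes alone, where EIF2AK1 was lost (0.08, adjusted p = 0.0823), and 7 with the GC offset, where EIF2AK4 was lost (-0.07, adjusted p = 0.147). The GC offset also moved EIF2AK2 to -0.16, EIF2AK1 from 0.20 to 0.32 and EIF2AK3 from 0.42 to 0.73. The control lines EV and NT also differed in 3 of the 8, beside 34.1% of all genes. At the stricter limit of the study, an adjusted p under 0.0001, the counts were 2 in OE versus EV (21.9% of all genes), 4 in KD versus NT (29.1%), 5 in the interaction (15.9%), 7 in OE versus KD (31.9%) and 1 in EV versus NT (8.16%). On the log2 scale the 8 genes changed by a median of 0.17 in OE, 0.29 in KD and 0.54 in the interaction, whatever the direction, beside 0.31, 0.36 and 0.37 over all genes. In OE versus EV, 49.3% of all called genes were higher, a share that was 36.5% with library sizes in place of TMM and 60.4% with the GC offset. Library sizes alone moved the median gene by -0.10 in OE versus EV and by -0.13 in the interaction, where the share of positive calls was 45.8% with TMM and 30.7% without. In OE versus KD the shares were 48.8% and 34.5%.

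**Figure D1:**
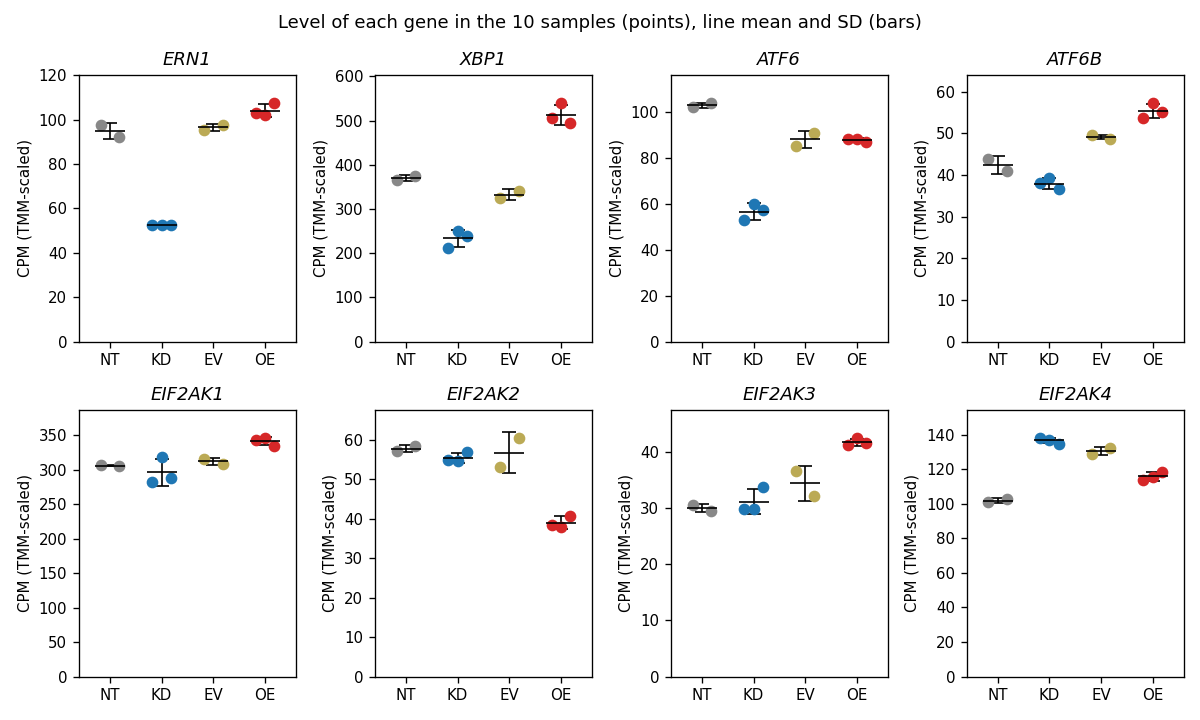
Level of each of the 8 genes in CPM (vertical axis, starting at 0) in the NT, KD, EV and OE lines, with a point per sample, a dash for the line mean and bars for the SD. The KD samples of ERN1 lie at 52.5 to 52.7 CPM and those of ATF6 at 52.8 to 60.0, below every other line, while the OE samples of XBP1 lie at 493 to 539, above every other line.

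ERN1 (chr17:64039080-64130819, minus strand, GRCh38) encodes the IRE1alpha kinase and RNase. Its level was 97.4 and 92.3 CPM in NT and 52.6, 52.5 and 52.7 CPM in KD. It was 95.5 and 97.7 CPM in EV and 103, 102 and 107 CPM in OE. The KD samples were the lowest of all 10, with an SD of 0.12 CPM, and the OE samples lay just above both EV samples. ERN1 fell in KD, with a log2 fold change of -0.85 ± 0.05 (SE, adjusted p = 4.88e-13), a decrease of 44.5%. In OE the log2 fold change was 0.11 ± 0.05 and was not called (adjusted p = 0.0671), although it was with DESeq2 size factors (adjusted p = 0.041), with the GC offset (0.14, adjusted p = 0.0100) and without KD replicate 2 (adjusted p = 0.0417). With library sizes alone it was 0.01 (adjusted p = 0.870). The interaction was 0.96 ± 0.07 (adjusted p = 8.77e-11).

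XBP1 (chr22:28794555-28800597, minus strand) encodes the transcription factor whose mRNA IRE1alpha splices. It stood at 365 and 375 CPM in NT and at 212, 249 and 238 CPM in KD. In EV it stood at 324 and 341 CPM, and in OE at 506, 539 and 493 CPM. The ranges of each line and its control did not overlap in either arm. XBP1 fell in KD with a log2 fold change of -0.67 ± 0.06 (adjusted p = 3.43e-10) and rose in OE with 0.62 ± 0.06 (adjusted p = 3.89e-09), a rise of 54.1%. XBP1, ATF6B and EIF2AK4 were called in opposite directions in these arms, and of these XBP1 had the largest change in each. Its interaction of 1.29 ± 0.08 was the largest of the 8 (adjusted p = 4.96e-12), larger in size than that of 91.3% of all tested genes. The change kept its direction and call in both arms under every other setting and with each sample left out. The ratio of XBP1 to ERN1 counts was 4.44 ± 0.36 in KD against 3.91 ± 0.22 in NT, and 4.93 ± 0.34 in OE against 3.44 ± 0.07 in EV (SD). XBP1 was lower in EV than in NT by 0.15 ± 0.06 on the log2 scale, which was not called (adjusted p = 0.0567). It was called under some other settings, among them limma-voom, the replicate block and EV and NT fitted alone (adjusted p = 0.0484, 0.0213 and 0.000702). A processed pseudogene, XBP1P1, held 0 to 3 counts per library.

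ATF6 (chr1:161766298-161977574, plus strand) encodes the sensor that is cleaved in the Golgi. Its level was 102 and 104 CPM in NT and 52.8, 60.0 and 57.3 CPM in KD. In EV it was 85.4 and 90.7 CPM, and in OE 88.1, 88.4 and 86.9 CPM, all 3 within the EV range. ATF6 thus fell in KD, by 0.86 ± 0.05 on the log2 scale (adjusted p = 1.63e-12), and the change in OE was -0.0037 with a 95% interval of -0.12 to 0.11 (adjusted p = 0.961). With the GC offset the OE value was 0.29 (adjusted p = 6.22e-05), so for this AT-rich gene (40.8% GC) the direction in OE depended on that setting, while KD versus NT was -0.73 (adjusted p = 4.66e-13). The interaction of 0.86 ± 0.08 (adjusted p = 2.86e-09) was 1.02 with the offset. ATF6 was also lower in EV than in NT, by 0.23 ± 0.06 on the log2 scale (adjusted p = 0.00408), a difference that was -0.10 and not called with the offset (adjusted p = 0.225), nor was it without EV replicate 1 (-0.19, adjusted p = 0.0650).

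ATF6B (chr6:32115264-32128253, minus strand), the relative of ATF6, changed little by comparison. It stood at 43.9 and 40.9 CPM in NT, 38.0, 39.3 and 36.6 CPM in KD, 49.5 and 48.7 CPM in EV and 53.7, 57.2 and 55.1 CPM in OE. Neither arm overlapped with its control, and the EV line was itself above NT (log2 fold change 0.21 ± 0.06, adjusted p = 0.0132). That difference was not called with the GC offset (0.11, adjusted p = 0.1804), without NT replicate 2 (adjusted p = 0.152) or without EV replicate 1 (adjusted p = 0.112). The log2 fold changes were 0.17 ± 0.06 in OE (adjusted p = 0.017) and -0.16 ± 0.06 in KD (adjusted p = 0.0228), with an interaction of 0.33 ± 0.08 (adjusted p = 0.00214), which was 0.20 with library sizes alone (adjusted p = 0.0387). The call in OE was lost with the GC offset (0.04, adjusted p = 0.590), with library sizes alone (0.07, adjusted p = 0.266) and without EV replicate 2 or OE replicate 2 (adjusted p = 0.109 and 0.0563). That in KD was lost with library sizes alone, without the filter, with the DESeq2 Wald test, and without NT replicate 1 or KD replicate 3 (adjusted p = 0.0542, 0.0906, 0.0584, 0.248 and 0.0732), and was larger with the GC offset (-0.28, adjusted p = 5.15e-05). The ratio of ATF6 to ATF6B counts was 2.43 ± 0.14 in NT and 1.50 ± 0.09 in KD (SD), and 1.79 ± 0.10 in EV and 1.59 ± 0.05 in OE.

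Among the kinases, EIF2AK2 (chr2:37099210-37157522, minus strand), which encodes the double-stranded RNA kinase PKR and belongs to the interferon-stimulated genes, was lowered in OE. It stood at 57.2 and 58.3 CPM in NT and 54.9, 54.5 and 56.8 CPM in KD. In EV it stood at 53.1 and 60.4 CPM and in OE at 38.5, 37.7 and 40.8 CPM. The OE samples were the lowest of all 10, and the other lines lay close together. The log2 fold change in OE was -0.54 ± 0.06 (adjusted p = 1.2e-07), a decrease of 31.2%, and that in KD was -0.06 with a 95% interval of -0.18 to 0.06 (adjusted p = 0.410). The interaction was -0.48 ± 0.09 (adjusted p = 7.16e-05). EIF2AK2 had the lowest GC content of the 8 genes, and with the GC offset the change in OE was -0.19 (adjusted p = 0.00461) and the interaction -0.29 (adjusted p = 0.0023), both still called.

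EIF2AK4 (chr15:39934115-40035591, plus strand), the amino acid sensing kinase GCN2, was the gene of the 8 that rose in KD. Its level was 101 and 103 CPM in NT and 138.1, 137.3 and 134.9 CPM in KD. It was 128.9 and 132.5 CPM in EV and 114, 116 and 119 CPM in OE. NT held the lowest values of the 4 lines and KD the highest, and none of the lines overlapped. The log2 fold change was 0.42 ± 0.05 in KD (adjusted p = 3.26e-08) and -0.17 ± 0.05 in OE (adjusted p = 0.00308), with an interaction of -0.60 ± 0.07 (adjusted p = 7.4e-08). EV was above NT by 0.36 ± 0.05 (adjusted p = 6.74e-06), which is close in size to the change in KD. The vector and the selecting drug differ between these controls and cannot be told apart. The change in OE was 0.0027 with the GC offset (adjusted p = 0.966), was -0.27 with library sizes alone (adjusted p = 3.02e-05) and was not called without EV replicate 2 (-0.15, adjusted p = 0.0516), while the rise in KD and the interaction were called under every setting.

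EIF2AK3 (chr2:88556741-88691518, minus strand), which encodes the ER kinase PERK, rose in OE. It stood at 30.4 and 29.5 CPM in NT and 29.8, 29.8 and 33.7 CPM in KD, and the ranges overlapped. In EV it stood at 36.6 and 32.2 CPM, below the 41.1, 42.4 and 41.5 CPM of OE. The log2 fold change was 0.28 ± 0.07 in OE (adjusted p = 0.00189) and 0.06 in KD (95% interval -0.09 to 0.20, adjusted p = 0.530). The interaction of 0.22 ± 0.10 was not called (adjusted p = 0.0768), so the rise in OE is not shown to differ from the change in KD. The call in OE rested on EV replicate 2, without which the value was 0.19 (adjusted p = 0.0886), and it was 0.18 with library sizes alone (adjusted p = 0.0453). With the GC offset the values were 0.58 in OE (adjusted p = 1.09e-08), 0.19 in KD (adjusted p = 0.0182) and 0.39 for the interaction (adjusted p = 0.000893), all called. The interaction was also called without KD replicate 3 (0.29, adjusted p = 0.0205) or EV replicate 1 (0.33, adjusted p = 0.0229), and was smaller with library sizes alone (0.09, adjusted p = 0.526) and without EV replicate 2 (0.13, adjusted p = 0.373). EV against NT was 0.20 ± 0.08 and was not called with TMM alone (adjusted p = 0.0509). It was called with the GC offset (0.34, adjusted p = 0.000635), and with DESeq2 size factors, the replicate block and EV and NT fitted alone (adjusted p = 0.0480, 0.0393 and 0.0186). It was also called without KD replicate 2 or 3 (adjusted p = 0.0257 and 0.0442). The antisense neighbour EIF2AK3-DT held 90 to 178 counts per library against 742 to 1073 for EIF2AK3, with 0 bases of shared exon.

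EIF2AK1 (chr7:6022247-6059175, minus strand), which encodes the heme regulated and mitochondrial stress responsive kinase HRI, changed little. It stood at 306 and 305 CPM in NT, 282, 319 and 289 CPM in KD, 316 and 309 CPM in EV and 344, 346 and 335 CPM in OE. The OE samples were above all the others, and KD overlapped with NT. The log2 fold change was 0.13 ± 0.05 in OE (adjusted p = 0.0317) and -0.04 in KD (95% interval -0.15 to 0.06, adjusted p = 0.456). The call in OE was lost without either EV sample or OE replicate 1 or 2 (adjusted p = 0.0623, 0.186, 0.0786 and 0.0651), and KD was called without KD replicate 2 (-0.10, adjusted p = 0.0443). The interaction, 0.17 ± 0.07, just passed (adjusted p = 0.0462) and was not called without the filter (adjusted p = 0.0621) or without either NT sample, KD replicate 1 or 3, either EV sample, or OE replicate 1 or 2 (adjusted p = 0.058 to 0.153). With library sizes alone the OE value was 0.03 and the interaction 0.04 (adjusted p = 0.543 and 0.595), and with the GC offset they were 0.25 and 0.26 (adjusted p = 3.81e-05 and 0.00157). AIMP2, on the opposite strand, shares 532 exonic bases with EIF2AK1 and held 2231 to 3538 counts. AIMP2 changed by 0.15 in OE (adjusted p = 0.0342) and fell by 0.58 on the log2 scale in KD (adjusted p = 4.16e-09). Whether counting used the strand is not stated in the sources used here, so reads of this overlap cannot be told apart.

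**Figure D2:**
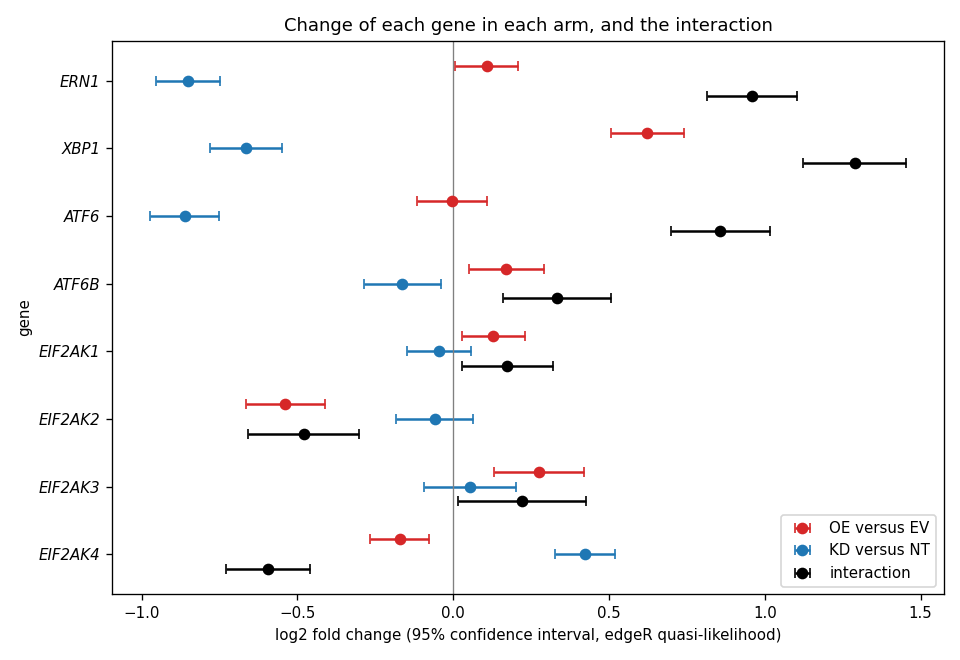
Log2 fold change (horizontal axis) with its 95% confidence interval for each gene in OE versus EV, KD versus NT and the interaction between these. ERN1, XBP1 and ATF6 have intervals far below 0 in KD, EIF2AK2 is below 0 only in OE and the interaction, and EIF2AK4 is above 0 in KD and below 0 in OE.

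**Figure D3:**
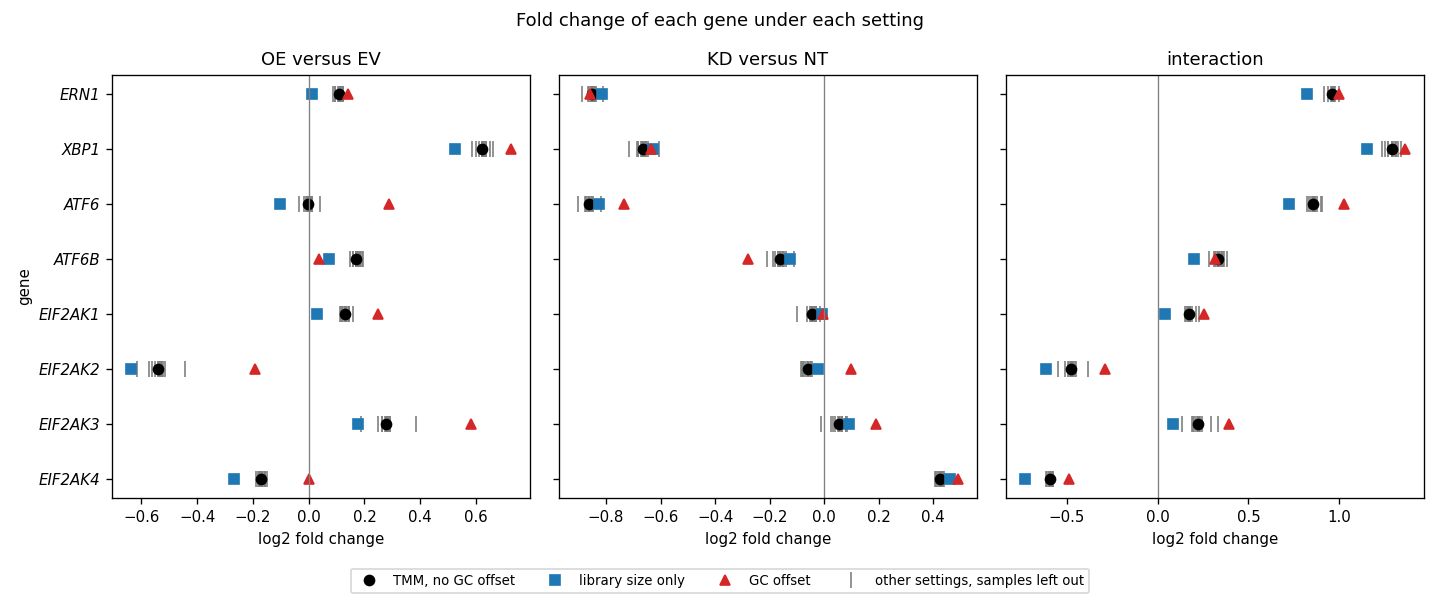
Log2 fold change (horizontal axis) of each gene in the 3 comparisons with TMM (black circle), library sizes alone (blue square), the GC offset (red triangle) and all other settings and left-out samples (grey ticks). The markers of ERN1, XBP1 and ATF6 in KD versus NT stay between -0.90 and -0.61, while those of EIF2AK2, EIF2AK3, EIF2AK4 and ATF6 in OE versus EV shift upward with the GC offset.

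To compare levels between genes, CPM were divided by the length of all annotated exons of the gene (GENCODE v44). On this scale XBP1 and EIF2AK1 were the most abundant in every line. XBP1 stood at 77.1 ± 6.3 CPM per kb in KD and 122 ± 2.3 in NT, and at 169 ± 7.7 in OE and 109.9 ± 3.9 in EV (SD), and EIF2AK1 at 54.0 to 62.2 (line means). ATF6B, EIF2AK4, ATF6, EIF2AK2 and ERN1 lay between 2.75 and 15.2, and EIF2AK3 was last at 1.45 to 2.01. The order was XBP1, EIF2AK1, ATF6B, EIF2AK4, ATF6, EIF2AK2, ERN1 and EIF2AK3 in NT and EV. In EV the samples of EIF2AK2 (4.81 and 5.47 CPM per kb) and ERN1 (4.98 and 5.10) overlapped. In KD, EIF2AK4 (11.3 to 11.5) stood above ATF6B (10.1 to 10.8), and EIF2AK2 (4.94 to 5.15) above ATF6 (3.70 to 4.21). In OE, ERN1 (5.33 to 5.60) stood above EIF2AK2 (3.42 to 3.70). Of the summed level of the 4 kinases per kb, EIF2AK1 made up 75.0% (KD) to 80.3% (OE), and EIF2AK2 made up 7.38% in NT, 6.99% in KD and 6.89% in EV against 4.57% in OE. With the length of the canonical transcript instead, XBP1 and EIF2AK1 still led in every line, and EIF2AK2 was last in place of EIF2AK3 (5.13 against 7.65 CPM per kb over the 10 samples). The other places depended on the length: with the canonical transcript EIF2AK4 was above ATF6B in NT already (18.4 against 16.2) and EIF2AK2 was below ATF6 in KD (5.55 against 7.59). The share of EIF2AK1 among the kinases was then 64.4% (KD) to 69.5% (OE), and that of EIF2AK2 5.78% in NT, 5.33% in KD and 5.28% in EV against 3.51% in OE.

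The genes that act around the sensors were examined in lists written from general knowledge. Of 22 tested partners and processing enzymes of IRE1alpha and ATF6, OE versus EV had 12 higher and 6 lower, and KD versus NT had 7 higher and 7 lower, with medians of 0.17 and 0.06 beside -0.02 over all genes in each. With the GC offset these counts were 13 and 3 in OE and 9 and 7 in KD. HSPA5, the chaperone BiP that holds the sensors inactive, rose in both arms. It went from 753 and 761 CPM in EV to 1174, 1231 and 1254 CPM in OE (log2 fold change 0.69 ± 0.05, adjusted p = 3.88e-11) and from 762 and 715 CPM in NT to 859, 889 and 885 CPM in KD (0.25 ± 0.05, adjusted p = 6.97e-05). Its interaction was 0.44 ± 0.07 (adjusted p = 7.14e-06). DNAJB9, a cochaperone that represses IRE1alpha and is a target of XBP1s, rose by 0.44 in OE and fell by 0.78 on the log2 scale in KD (adjusted p = 0.00036 and 1.53e-07), the OE value being 0.85 with the GC offset, and SYVN1, the ubiquitin ligase HRD1, rose by 0.91 in OE (adjusted p = 4.23e-13). SEC63, a translocon subunit, fell in both arms, by 1.25 on the log2 scale in OE and 0.35 in KD (adjusted p = 4.36e-15 and 2.27e-06), values that were -0.86 and -0.16 with the GC offset. Of the Golgi proteases that cleave ATF6, MBTPS1 rose in both arms (0.18 in OE and 0.37 in KD, adjusted p = 0.00518 and 2.26e-06), the call in OE being lost with library sizes alone (adjusted p = 0.159). MBTPS2 fell in OE by 0.37 on the log2 scale (adjusted p = 0.000301), which was -0.0033 with the GC offset (adjusted p = 0.972), and rose in KD by 0.19 (adjusted p = 0.0338), which was 0.36 with the offset. RTCB, the ligase that joins the XBP1 exons, changed by 0.14 in OE (adjusted p = 0.0245, 0.21 with the GC offset, and 0.04 with library sizes alone, adjusted p = 0.454) and by -0.11 in KD (adjusted p = 0.0697). CREB3L1, a related membrane-bound factor, was low, at 0.26 and 0.28 CPM (7 counts each) in NT against 1.38 to 2.05 in KD (log2 fold change 2.56 ± 0.35, adjusted p = 1.23e-06). It stood at 0.74 and 1.10 CPM in EV and 0.60 to 0.66 in OE, and EV was above NT by 1.74 ± 0.42 on the log2 scale (adjusted p = 0.00253).

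Targets of the ATF6 and XBP1 branches were higher in OE for the most part. Of 12 ATF6 targets, OE versus EV had 11 higher and 1 lower with a median of 0.71, and KD versus NT had 7 higher and 3 lower with a median of 0.33, beside -0.02 over all genes in each. The shares of all tested genes called were 25.6% higher and 26.4% lower in OE, and 29.1% and 28.4% in KD. HERPUD1, of ER-associated degradation, went from 161 and 157 CPM in EV to 280, 288 and 268 CPM in OE, and from 183 and 166 CPM in NT to 92.7, 116 and 111 CPM in KD. It had the largest interaction of the list (1.52 ± 0.09, adjusted p = 5.03e-12), while the disulfide isomerase PDIA4 rose in both arms (0.46 and 0.65, adjusted p = 8.32e-09 and 1.03e-11). Of 20 XBP1 targets, OE versus EV had 15 higher and 2 lower with a median of 0.35, and KD versus NT had 4 higher and 8 lower with a median of -0.09, or 4 and 5 with the GC offset. The ATF6 and XBP1 lists share HYOU1 and SDF2L1, and XBP1 itself is counted among the ATF6 targets. The ATF6 target HSPA5 and the XBP1 targets DNAJB9, PDIA6, SEC63 and SYVN1 were also counted among the partners and processing enzymes. Of 6 tested mRNAs that IRE1alpha is known to degrade, 2 were higher and 1 lower in OE, and 2 higher and 2 lower in KD. Their medians were 0.10 and 0.04, beside -0.02 over all genes in each. With library sizes alone the counts in OE were 1 higher and 2 lower. SCARA3 rose in KD by 1.39 ± 0.12 (adjusted p = 5.87e-10) and PDGFRB by 1.11 (adjusted p = 6.84e-05). COL6A1 changed by -0.27 (adjusted p = 2.16e-05) and HGSNAT by -0.14 (adjusted p = 0.0247). The call of HGSNAT was lost with library sizes alone (adjusted p = 0.0704). BLOC1S1 changed by 0.21 in KD (adjusted p = 0.373).

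**Figure D4:**
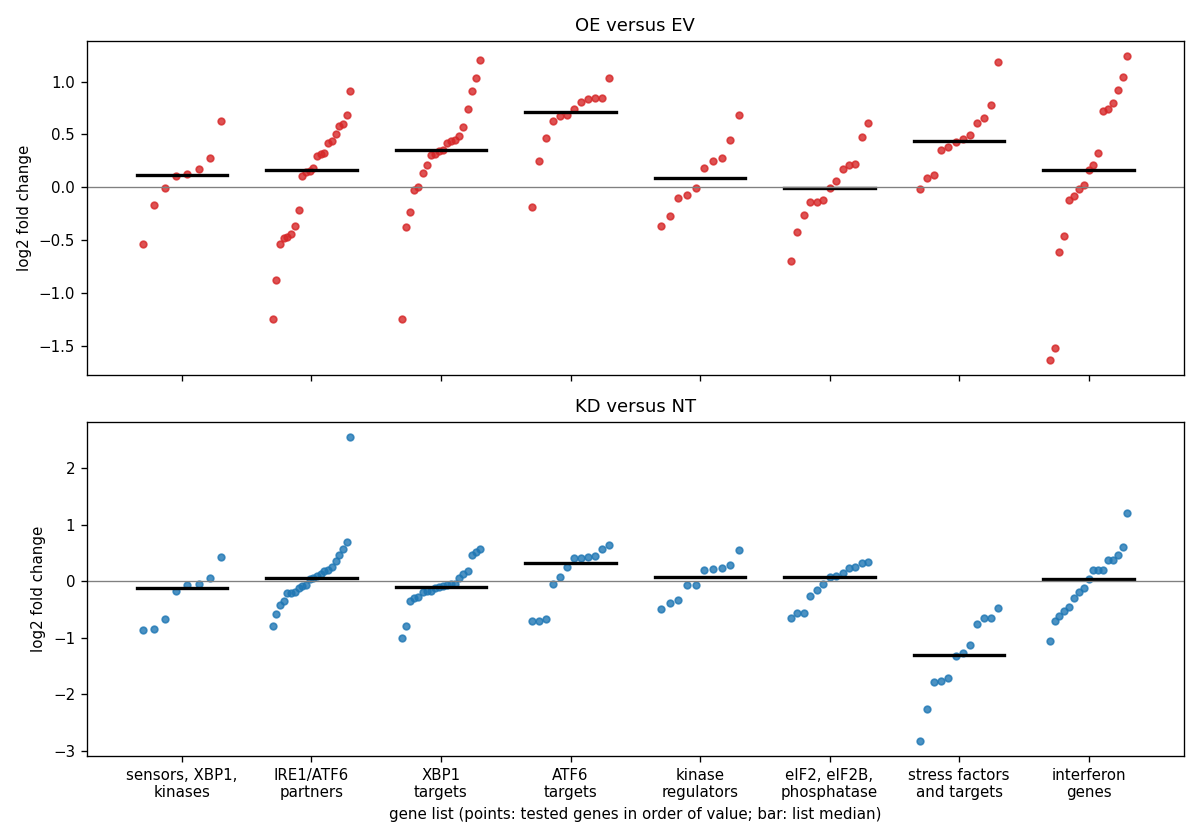
Log2 fold change (vertical axis) of each tested gene in 8 gene lists, ordered by value within the list, in OE versus EV and KD versus NT, with a bar at the list median. The ATF6 targets have a median of 0.71 in OE and 0.33 in KD, and the stress factors and targets have a median of 0.44 in OE and -1.30 in KD.

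Regulators of the kinases moved in both directions. Of 10, OE versus EV had 5 higher and 2 lower, and KD versus NT had 5 higher and 3 lower. Their medians were 0.09 and 0.07, beside -0.02 over all genes in each. The shares of all tested genes called were 25.6% higher and 26.4% lower in OE, and 29.1% and 28.4% in KD. With the GC offset the counts in OE were 5 and 0. GCN1, which activates GCN2 on stalled ribosomes, rose in KD by 0.56 ± 0.05 (adjusted p = 3.72e-09), from 260 and 255 CPM in NT to 380, 392 and 365 CPM. In OE it changed by 0.19 (adjusted p = 0.00521), which was 0.05 with the GC offset (adjusted p = 0.380) and 0.09 with library sizes alone (adjusted p = 0.125). IMPACT, which competes with GCN2 for GCN1, fell in KD by 0.49 on the log2 scale (adjusted p = 2.02e-07) and in OE by 0.37 (adjusted p = 2.44e-05), the latter being -0.08 with the GC offset (adjusted p = 0.232). PRKRA, the activator of PKR called PACT, changed by -0.27 in OE (adjusted p = 0.00358, and 0.04 with the GC offset, adjusted p = 0.664) and rose by 0.29 in KD (adjusted p = 0.00148). TARBP2, which holds PKR back, rose in OE by 0.69 ± 0.07 (adjusted p = 2.45e-08). In KD it rose by 0.24 (adjusted p = 0.00507), which was 0.13 with the GC offset (adjusted p = 0.100). DNAJC3, the PERK and PKR inhibitor p58IPK, rose in OE by 0.45 ± 0.05 (adjusted p = 1.32e-07) and changed by -0.07 in KD (adjusted p = 0.293), values that were 0.78 and 0.08 with the GC offset. DNAJC3 is also counted among the XBP1 targets. Of the relay that carries mitochondrial stress to HRI, OMA1 fell in KD by 0.34 on the log2 scale (adjusted p = 0.000224) and was not called in OE (-0.11, adjusted p = 0.221, but -0.20 and adjusted p = 0.0277 with library sizes alone). DELE1 was called in neither arm (-0.01 and -0.07, adjusted p = 0.895 and 0.294), although KD was with the GC offset (-0.11, adjusted p = 0.0474).

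Downstream of the kinases, the 13 genes of eIF2, eIF2B and the eIF2alpha phosphatase had 4 higher and 6 lower in OE versus EV and 5 and 5 in KD versus NT. Their medians were -0.01 and 0.07, beside -0.02 over all genes in each. The shares of all tested genes called were 25.6% higher and 26.4% lower in OE, and 29.1% and 28.4% in KD. With the GC offset the split in OE was 8 higher and 2 lower. PPP1R15A, the inducible phosphatase subunit GADD34, rose in OE by 0.61 ± 0.10 (adjusted p = 1.11e-05) and fell in KD by 0.64 on the log2 scale (adjusted p = 1.31e-05). Its constitutive counterpart PPP1R15B changed by -0.14 in OE (adjusted p = 0.0338) and 0.14 in KD (adjusted p = 0.0239), and with the GC offset these were 0.07 (adjusted p = 0.193) and 0.23. Of 12 factors and targets of the integrated stress response, all 12 were lower in KD versus NT (median -1.30). OE versus EV had 9 higher and 0 lower (median 0.44). The median over all genes was -0.02 in each comparison. PPP1R15A is counted both here and among the 13 genes above. ATF4 stood at 1174 and 1160 CPM in NT, 464, 508 and 477 CPM in KD, 904 and 891 CPM in EV and 1115, 1219 and 1101 CPM in OE. DDIT3, the factor CHOP, fell in KD by 2.83 ± 0.08 on the log2 scale (adjusted p = 1.94e-18) and was not called in OE (0.09, adjusted p = 0.343). The control lines differed too: in EV versus NT, 0 of the 12 were higher and 5 lower, beside 18.5% and 15.5% of all genes. ATF4 was lower in EV than in NT by 0.38 on the log2 scale (adjusted p = 1.05e-05) and DDIT3 by 0.68 (adjusted p = 3.4e-07). The part of this difference in the fall in KD was not tested. In KD versus NT, EIF2AK3, EIF2AK1 and EIF2AK2 were not called and EIF2AK4 was higher. EIF2AK3 was called there with the GC offset (0.19, adjusted p = 0.0182), and EIF2AK1 without KD replicate 2 (-0.10, adjusted p = 0.0443). Kinase activity was not measured, and whether the kinase RNA levels bear on the fall of the 12 genes was not tested.

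EIF2AK2 was set beside other interferon-stimulated genes, of which 22 were listed, 21 were in the table and 17 passed the filter. OE versus EV had 4 higher and 3 lower, beside 25.6% and 26.4% of all tested genes. KD versus NT had 2 higher and 4 lower, beside 29.1% and 28.4%. Their medians were 0.16 and 0.04, beside -0.02 over all genes in each. With the GC offset the counts in OE were 6 and 2. Most were scarce. IFIT3 stood at 0.79 and 0.76 CPM in NT and at 0.08 to 0.42 CPM elsewhere, and IFI27 fell in OE by 1.52 ± 0.39 on the log2 scale (adjusted p = 0.00199), from 0.94 and 0.65 CPM in EV to 0.28, 0.23 and 0.31 CPM.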

How the data were processed

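RNA from 10 samples was sequenced as polyA-selected paired reads. The authors trimmed adapters with BBDuk and aligned reads with STAR 2.6.0a to an Ensembl hg38 transcriptome, and they deposited whole-number counts per gene symbol for all 10 samples, without normalization. Total counts were 23555205 to 28615770 per library, with 742 to 12753 counts for each of these genes. Samples were grouped by title.

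Counts were filtered with filterByExpr (17230 genes kept), scaled with TMM and tested with the quasi-likelihood test of edgeR 4.0.16 in R 4.3.3, with a mean per line over all 10 samples and Benjamini-Hochberg adjustment over all tested genes of each comparison. SE is the log2 fold change divided by the square root of F. Calls were read at an adjusted p under 0.05 and under 0.0001. The script was tested on simulated data. Other settings were library sizes alone or DESeq2 size factors, limma-voom (limma 3.58.1) or the Wald test of DESeq2 1.42.0, all genes unfiltered or those with 10 or more counts in each library, the replicate block, a fit of the compared lines alone, an offset for exonic GC content and leaving out each sample. Coordinates, lengths and GC content came from GENCODE v44, matched by symbol for 13992 tested genes (81.2%), and promoters from RefSeq.

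The 8 genes and all gene lists were chosen with earlier results of these data known. Genes named besides these 8 came from the 2 highest and 2 lowest interaction values of a list or were picked for their role. The 2 genes most like each of the 8 were named too. Not every gene that met the rule for the lists was named. Genes outside this rule were named after their values were seen. The length of the canonical transcript was an alternative added after seeing the data.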

Additional observations from a re-analysis of the deposited data

How the results depend on the processing

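Of 752 log2 fold changes of the 8 genes recomputed under other settings or with a sample left out, 682 kept their direction and side of the limit, 33 lost the call, 23 gained it and 14 changed sign, and the cause of these changes was not tested. In OE versus EV the log2 fold change of ATF6 was 0.011 with DESeq2 size factors and with the DESeq2 Wald test, 0.0081 without the filter, 0.29 with the GC offset and -0.036 to 0.041 with a sample left out, and that of EIF2AK4 was 0.0027 with the GC offset. With this offset EIF2AK2 was 0.098 in KD versus NT and 0.13 in EV versus NT. Leaving out samples gave -0.012 to 0.085 for EIF2AK3 in KD versus NT, and -0.012 to 0.066 for ERN1 and -0.12 to 0.052 for EIF2AK2 in EV versus NT. At an adjusted p under 0.0001, 2 of the 8 genes were called in OE versus EV and 1 in EV versus NT, and 3778, 5022, 2744, 1406 and 5490 of all genes were called in OE versus EV, KD versus NT, the interaction, EV versus NT and OE versus KD. Leaving out samples gave 2 to 7 of the 8 genes in OE versus EV, with 2 without EV replicate 2, and 1 to 5 in EV versus NT, with 1 without EV replicate 1, where 3844 to 6665 of all genes were called. With the replicate block, and with EV and NT fitted alone, 5 of the 8 genes differed between these controls. The replicate block changed no other count of the 8 genes by more than 1.5 times. Same-numbered samples share only a number: the correlation of their residuals was -0.044 to 0.078 over 13 pairs. With 2 samples in each control, a single control sample can decide a call near the limit.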

Other observations

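The genes whose levels ran most like those of each gene over the 10 samples were found among 10055 genes with an average log2 CPM of at least 3, by the root mean square (RMS) difference of log2 CPM after each gene was centred on its own mean. The nearest to ERN1 were SEPHS2 and MTHFD1L (RMS 0.068 and 0.091), and the nearest to XBP1 were ALKBH7 and SYT17 (0.076 and 0.083). For ATF6 they were IGBP1 and ERMAP (0.045 and 0.054), and for ATF6B MARF1 and ASPSCR1 (0.033 and 0.037). Among the kinases, EIF2AK2 ran closest to CAMSAP2 and ATAD2B (0.037 and 0.042), EIF2AK4 to BAZ1B and PHF20 (0.036 and 0.041), EIF2AK3 to VPS9D1-AS1 and IBA57 (0.060 and 0.061) and EIF2AK1 to COX7A2 and ERBB2 (0.022 and 0.028). The median gene lay 0.23 to 0.49 away. These values describe the libraries and share their depth and base composition.

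The 10 nearest tested genes on each side of each gene were counted beside the shares of all tested genes, of which 25.6% were called higher and 26.4% lower in OE versus EV and 28.4% lower in KD versus NT. Around EIF2AK2, 11 of 20 neighbours were called lower in OE versus EV (median -0.16), and around ATF6B 8 of 20 were called higher (median 0.28, beside 0.17 for ATF6B). Around XBP1, 10 of 20 were called higher in OE versus EV (median 0.24), and 3 of 20 were called lower in KD versus NT, where the median was 0.30 and XBP1 fell by 0.67 on the log2 scale. Around ERN1, 9 of 20 were called lower in KD versus NT (median -0.16), and around ATF6 4 of 20 (median 0.07). Whether these counts differ from the shares of all genes was not tested. Of other overlapping genes, GPATCH11 shares 35 exonic bases with EIF2AK2 and held 161 to 340 counts, and TNXB shares 71 with ATF6B and held 10 to 26.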
